A study of Mus musculus with 10 samples.

Results

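The genes described here are 10 genes of the Paneth cell: the lysozyme genes Lyz1 and Lyz2, the alpha-defensin (cryptdin) genes Defa17, Defa22, Defa24 and Defa30, the protease gene Mmp7, the ribonuclease gene Ang4, the lectin gene Itln1 and the phospholipase gene Pla2g2a. They were chosen by name, as well-known secreted products of Paneth cells, from the 35275 genes of the expression table, and all 10 were found. Of these, 9 were found by symbol, and Defa30, which the table lists as Gm15284, was found by its identifier, ENSMUSG00000074444. RNA of jejunal epithelial cells was sequenced from 10 adult C57BL/6 mice, labelled male, all of which carried a tamoxifen-inducible Cre recombinase driven by the villin promoter (VillinCreERT2) and floxed Myo5b alleles (MYO5Bflox/flox). Controls (3 mice) were given corn oil only, without induction. The 4 MYO5B-knockout mice received 2 mg of tamoxifen and a vehicle, and the other 3 MYO5B-knockout mice received 2 mg of tamoxifen and lysophosphatidic acid (LPA) at 3 mg/kg, injected intraperitoneally. All mice were killed on day 4. Mice are named by the number in their label, and the values of single mice are always listed in the same order: controls 2, 4 and 5, then MYO5B-knockout mice 3, 5, 6 and 7 (given vehicle), then LPA-treated mice 1, 4 and 5. Controls received no tamoxifen, so tamoxifen and the loss of MYO5B cannot be told apart in any comparison with them. LPA given to mice with intact MYO5B was not analysed here.

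Paneth cells sit at the base of small intestinal crypts between the stem cells, and pack antimicrobial proteins into large apical granules that are released into the crypt lumen. Lysozyme cleaves the peptidoglycan of bacterial cell walls. Alpha-defensins are made as inactive precursors, and in mice matrilysin, the product of Mmp7, cuts them to the active peptides within the granules. The cells also supply Wnt, Notch and EGF-family ligands to neighbouring stem cells. MYO5B is a motor protein that carries recycling endosomes to the apical membrane, and its loss in people causes microvillus inclusion disease. The comparisons ask whether the transcripts of Paneth cell products differed after loss of MYO5B, and whether they differed with LPA treatment among knockout mice.

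Several libraries differed in ways their groups do not explain. Control mouse 2 and MYO5B-knockout mouse 3 had libraries with reads on 12242 and 12601 genes against 17309 to 18267 in the other 8, and mitochondrial transcripts took 17.4% and 18.0% of their reads against 1.98% to 3.50%. MYO5B-knockout mouse 3 and LPA-treated mouse 1 had Xist at 8.41 and 15.1 FPKM (the fragments on a gene divided by its length in kilobases and by the reads of its library) and no read (0) on any of 4 Y-linked genes, against their label as male. One description line of LPA-treated mouse 1 names vehicle while its title names LPA, and its group was taken from the title. Reads on genes ranged from 10949420 to 24470409 per library. Myo5b itself, the targeted gene, lay between 10.3 and 13.6 FPKM in all 7 induced mice and between 16.5 and 32.0 FPKM in the 3 controls, without overlap. Between MYO5B-knockout and control mice, values of members that moved by over 1.5 times without the few-gene libraries are given both ways, and in every comparison the members that passed without these libraries are counted. Here the few-gene libraries are control mouse 2 and MYO5B-knockout mouse 3, and the Xist libraries are MYO5B-knockout mouse 3 and LPA-treated mouse 1.

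Several of these genes are close paralogs, and the coding sequences show how far short reads can tell them apart. Lyz1 (chr10:117287796-117292868, minus strand, in the authors' table, build GRCm38) and Lyz2 (chr10:117277334-117282274, minus strand) are neighbours. Their coding sequences, taken from GENCODE M21 transcripts of the same build, are both 447 bases long and differ at 22 bases, an identity of 95.1%. The first 300 bases are shown, with capitals at the bases that differ.
Lyz1: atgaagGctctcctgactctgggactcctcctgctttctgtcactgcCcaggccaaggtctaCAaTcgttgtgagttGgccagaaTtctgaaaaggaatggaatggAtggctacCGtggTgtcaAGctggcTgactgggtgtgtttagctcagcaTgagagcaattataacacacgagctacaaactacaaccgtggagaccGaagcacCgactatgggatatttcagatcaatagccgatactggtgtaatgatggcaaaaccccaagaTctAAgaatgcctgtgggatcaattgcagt
Lyz2: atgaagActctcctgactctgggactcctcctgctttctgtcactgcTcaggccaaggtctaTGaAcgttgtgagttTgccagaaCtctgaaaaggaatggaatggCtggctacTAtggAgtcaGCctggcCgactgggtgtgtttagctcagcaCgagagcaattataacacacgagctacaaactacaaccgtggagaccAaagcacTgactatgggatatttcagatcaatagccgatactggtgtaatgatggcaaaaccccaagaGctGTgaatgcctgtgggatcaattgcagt
The differences lie in clusters with long identical stretches between them. Over the whole transcripts, 16.1% of the 50-base windows of Lyz1 also occur in Lyz2, but only 2.06% of its 100-base windows do, so reads of 50 bases would often be shared between them and longer fragments seldom.

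The 4 alpha-defensin genes lie on the plus strand of chromosome 8, Defa30 at chr8:21134642-21135598, Defa22 at chr8:21162277-21163249, Defa17 at chr8:21655780-21656735 and Defa24 at chr8:21734494-21735471. Each has a coding sequence of 282 bases. Defa24, the most abundant member, is shown first, and the capitals in the other sequences mark bases that differ from Defa24 or have no partner in it.
Defa24: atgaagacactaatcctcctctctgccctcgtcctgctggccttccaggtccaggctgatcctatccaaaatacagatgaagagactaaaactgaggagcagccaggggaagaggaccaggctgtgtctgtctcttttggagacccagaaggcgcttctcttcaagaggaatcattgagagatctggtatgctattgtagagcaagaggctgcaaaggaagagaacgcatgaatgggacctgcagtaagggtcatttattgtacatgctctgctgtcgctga
Defa30: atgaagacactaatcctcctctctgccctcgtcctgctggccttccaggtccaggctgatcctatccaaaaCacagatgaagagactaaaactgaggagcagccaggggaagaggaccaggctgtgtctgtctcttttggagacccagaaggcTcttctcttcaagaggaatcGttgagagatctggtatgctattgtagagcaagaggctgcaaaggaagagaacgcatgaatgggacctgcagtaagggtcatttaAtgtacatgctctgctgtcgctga
Defa17: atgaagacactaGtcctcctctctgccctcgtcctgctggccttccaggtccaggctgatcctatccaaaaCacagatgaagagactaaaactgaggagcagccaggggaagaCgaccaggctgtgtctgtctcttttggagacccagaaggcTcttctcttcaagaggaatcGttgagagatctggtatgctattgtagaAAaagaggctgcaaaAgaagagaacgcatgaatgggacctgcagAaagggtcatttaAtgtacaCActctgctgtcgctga
Defa22: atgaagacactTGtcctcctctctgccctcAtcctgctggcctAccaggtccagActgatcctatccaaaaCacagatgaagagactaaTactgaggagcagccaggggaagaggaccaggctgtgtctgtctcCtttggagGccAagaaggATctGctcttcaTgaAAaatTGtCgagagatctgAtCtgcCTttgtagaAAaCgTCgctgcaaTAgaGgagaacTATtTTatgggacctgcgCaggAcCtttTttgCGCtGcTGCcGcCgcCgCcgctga
Defa30 differs from Defa24 at 4 bases (98.6% identity) and Defa17 at 12 (95.7%), whereas Defa22 differs at 48 with 6 further columns of gaps (81.1%). The changes of Defa22 crowd into the end of the sequence, which encodes the mature peptide. Of the 100-base windows of the Defa17 transcript, 90.6% also occur in Defa3 or Defa30, nearly all of them in Defa3, and 40.3% of those of Defa22 occur in Defa21. Only 0.334% of those of Defa30 and 0% of those of Defa24 are shared with other genes. Of the 50-base windows, other genes share 92.0% for Defa17, 74.9% for Defa22, 52.4% for Defa30 and 28.1% for Defa24. Values of Defa17 and Defa22 are therefore uncertain as values of single genes, and with reads of 50 bases those of Defa30 and Defa24 would be too. Of the other members, Mmp7 shares 2.58% of its 100-base windows with AV064505, and Ang4, Itln1 and Pla2g2a share none with any other annotated gene.

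The promoters of 7 of the 10 members were in the RefSeq table (build GRCm38.p6), as windows from 250 bases before to 50 bases after the start. The letters CTTTGNN, with A or T for each N, searched on both strands as a form of the TCF element through which Wnt signalling acts, occur in the windows of Defa22, Defa30 and Mmp7, 3 of 7 genes, and in 16.9% of all 32851 promoter windows. The letters TATAAA also occur in the windows of 3 of the 7 genes, and in 8.32% of all windows. The 100 bases before the start of Defa22 (chr8:21162177-21162276, plus strand) hold both, in capitals with the TCF letters in reverse complement, and those before the start of Lyz1 (chr10:117292869-117292968, minus strand) hold neither.
Defa22 promoter: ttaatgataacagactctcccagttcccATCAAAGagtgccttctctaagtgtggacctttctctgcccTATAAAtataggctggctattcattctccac
Lyz1 promoter: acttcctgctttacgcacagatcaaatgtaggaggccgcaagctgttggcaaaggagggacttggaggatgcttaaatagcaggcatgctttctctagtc
The corresponding 100 bases of Lyz2 are identical to those of Lyz1 at 92 positions. These matches describe letters only.

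Across the 10 libraries the alpha-defensins were the most abundant of the members per length. Defa24 had a mean of 3281 FPKM, followed by Defa30 at 1742, Defa17 at 735, Lyz1 at 654, Itln1 at 365, Defa22 at 175, Ang4 at 143, Mmp7 at 40.8, Pla2g2a at 20.0 and Lyz2 at 5.16 FPKM. Levels varied widely between mice. The highest library exceeded the lowest by 3.63-fold for Mmp7, by 7.63-fold for Lyz1, by 10.0- to 13.6-fold for the 4 alpha-defensins and Itln1, and by 40.1-fold for Ang4. Because the material was bulk epithelium, fewer Paneth cells and less RNA per Paneth cell cannot be told apart.

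**Figure D1:**
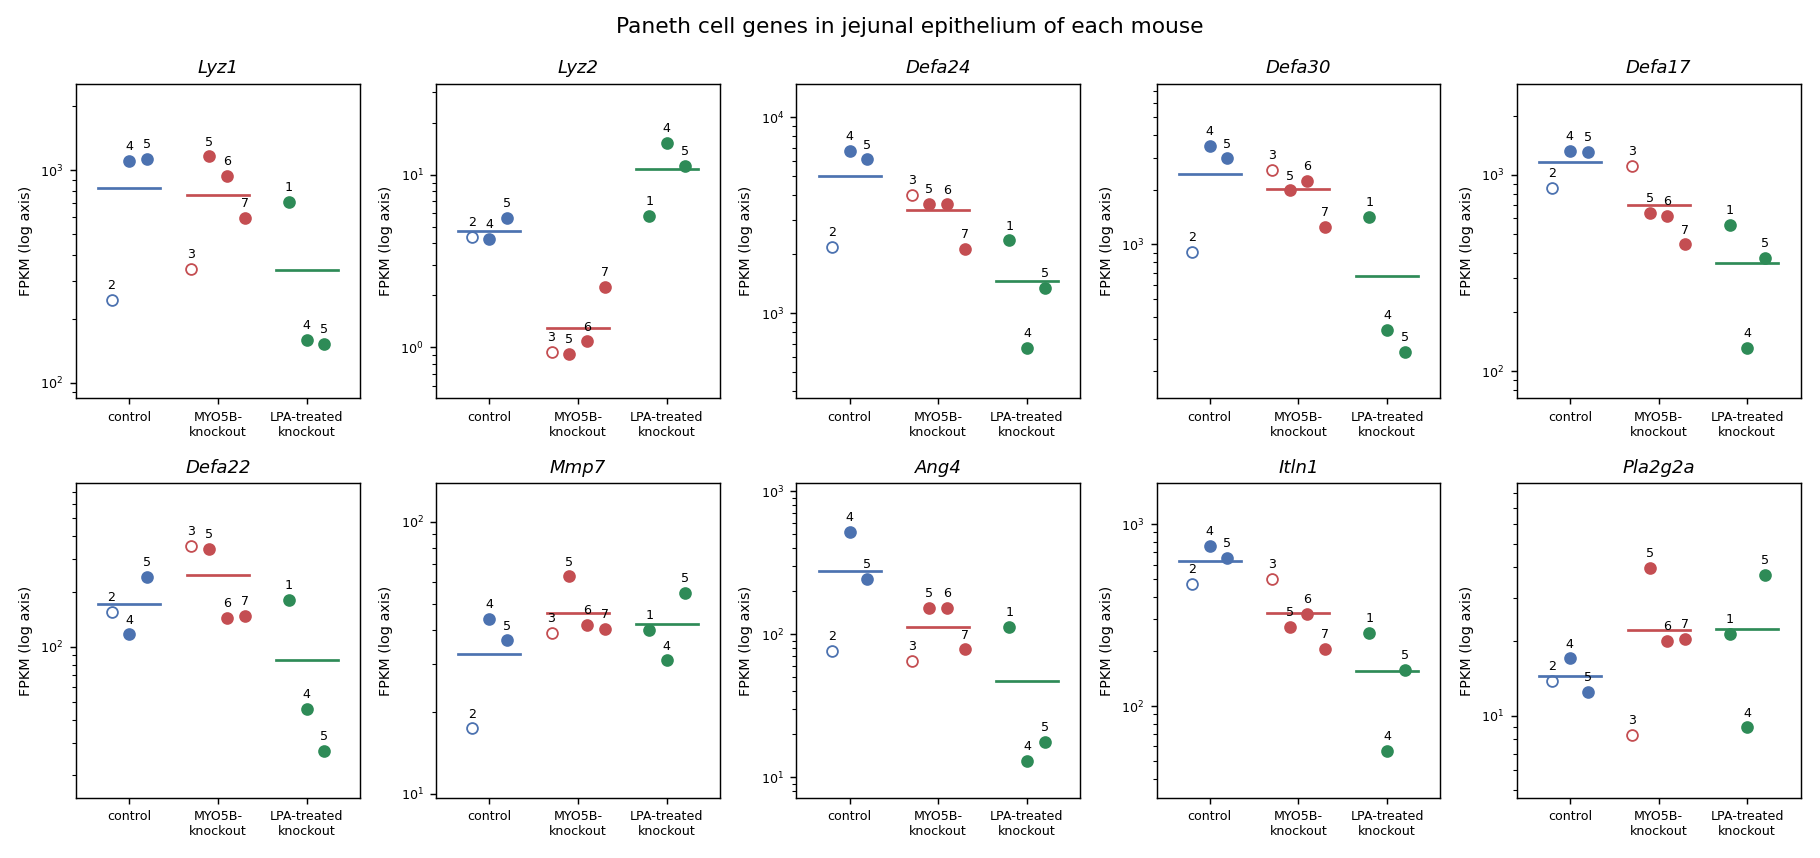
FPKM (log axis, a separate scale in each panel) of the 10 Paneth cell genes in each mouse, with mouse numbers beside the points, group means as bars and open circles for the few-gene libraries. LPA-treated mice 4 and 5 lie at the bottom of 7 panels, and Lyz2 shows the opposite order, with 15.3 and 11.2 FPKM in those mice.

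Lyz1 encodes the lysozyme of Paneth cell granules. Lyz1 had 244, 1101 and 1129 FPKM (controls), 344, 1161, 943 and 597 (MYO5B-knockout) and 708, 158 and 152 (LPA-treated). Control and MYO5B-knockout mice covered the same range, with the lowest value of each group in its few-gene library, and LPA-treated mice 4 and 5 lay below every other mouse. MYO5B-knockout mice differed from controls by a log2 fold change of 0.035 (SE 0.71, adjusted p = 0.99, 95% interval from -1.54 to 1.61), which leaves room for a change of either sign. Its sign turned without the few-gene libraries (-0.36), with median-ratio scaling of the libraries (-0.26) and in edgeR and DESeq2 on the recovered reads (-0.34 and -0.36). LPA-treated mice were lower than untreated knockout mice by a log2 fold change of -1.42 (SE 0.71, adjusted p = 1), with LPA-treated mouse 1 inside the range of the knockout mice.

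Lyz2 encodes the lysozyme of macrophages and granulocytes, and is a minor lysozyme gene of the intestinal epithelium. Lyz2 had 4.36, 4.26 and 5.59 FPKM (controls), 0.938, 0.916, 1.08 and 2.24 (MYO5B-knockout) and 5.75, 15.3 and 11.2 (LPA-treated). The 3 groups did not overlap: every knockout mouse was lowest and every LPA-treated mouse was highest. These values rest on few reads, 61 to 124 in controls, 13 to 64 in MYO5B-knockout mice and 178 to 335 in LPA-treated mice. The 13 reads of MYO5B-knockout mouse 3 have an exact 95% Poisson interval of 6.92 to 22.2 reads, or 0.499 to 1.60 FPKM, which covers counting error only.

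Lyz2 was 3.67-fold lower after MYO5B loss than in controls, a log2 fold change of -1.88 that missed the threshold (SE 0.45, adjusted p = 0.0623). It passed with median-ratio scaling (-2.16, adjusted p = 0.0393), after quantile normalization (adjusted p = 0.0412), in edgeR (-2.13, adjusted p = 0.0474) and in DESeq2 (-2.17, adjusted p = 0.00161). Without the few-gene libraries it did not pass (-1.82, adjusted p = 0.0559). With the Xist libraries also left out, the same estimate passed (adjusted p = 0.0265). That further step removed only LPA-treated mouse 1, which is in neither of these groups. Over all 18 alternatives the adjusted p of Lyz2 lay between 0.00161 and 0.21 and its direction held. In LPA-treated against untreated knockout mice, Lyz2 was 7.69-fold higher, a log2 fold change of 2.94 (SE 0.45), which exceeded that of 99.9% of all genes tested. Its unadjusted p was 5.27e-05 and adjusted p was 0.829, in a comparison in which limma called no gene. DESeq2 called it (3.00, adjusted p = 0.000435) among 5 genes in all, edgeR did not (2.99, adjusted p = 1), and limma called it without the few-gene and Xist libraries (3.22, adjusted p = 0.0196). Leaving out each mouse in turn left this log2 fold change between 2.64 and 3.34. LPA-treated mice also lay above controls in Lyz2, with a log2 fold change of 1.07 (SE 0.48, adjusted p = 0.304).

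Macrophage and granulocyte markers were read beside Lyz2. Of 17 such genes other than Lyz2, 16 were in the table and 14 were tested. All 14 were higher in LPA-treated than in untreated knockout mice, where 39.3% of all genes were lower. Their median log2 fold change was 1.04, against 0.11 over all genes, and none passed the test. Summed over the 16, controls had 21.5 to 87.0 FPKM, MYO5B-knockout mice 16.9 to 41.8 and LPA-treated mice 32.0 to 86.2. C1qa, which encodes a chain of complement C1q made by tissue macrophages, had 67.9, 3.06 and 5.93 FPKM (controls), 29.2, 1.45, 1.55 and 3.07 (MYO5B-knockout) and 5.15, 17.7 and 48.6 (LPA-treated). In the few-gene libraries C1qa and Lyz2 parted: C1qa was highest in control mouse 2, and MYO5B-knockout mouse 3 had 29.2 FPKM of C1qa with 0.938 FPKM of Lyz2. Among the other 8 libraries, both genes were lowest in MYO5B-knockout mice 5 and 6 and highest in LPA-treated mice 4 and 5. Of these, mouse 5 was highest for C1qa and mouse 4 for Lyz2. C1qb had 3.66, 1.97 and 4.04 FPKM (controls), 0.168, 1.44, 1.26 and 3.22 (MYO5B-knockout) and 3.87, 9.51 and 7.31 (LPA-treated), with every LPA-treated mouse above every untreated knockout mouse. Between these groups 3.56% of all genes were higher with LPA without overlap. Ptprc, the leukocyte marker CD45, named after its values were seen like S100a8 below, lay between 0.158 and 3.39 FPKM over all libraries. The granulocyte gene S100a8 had no reads in 8 libraries. The part of these cells in the level of Lyz2 was not tested.

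The ratio of Lyz1 to Lyz2 depends on the values of both genes, of which Lyz1 overlapped between MYO5B-knockout and control mice. It was 55.9, 259 and 202 in control mice 2, 4 and 5, it was 367, 1267, 871 and 266 in MYO5B-knockout mice 3, 5, 6 and 7, and it was 123, 10.4 and 13.6 in LPA-treated mice 1, 4 and 5. Every untreated knockout mouse thus lay above every control mouse and every LPA-treated mouse in this ratio of FPKM. The separation from controls was narrow, with 266 in MYO5B-knockout mouse 7 and 259 in control mouse 4. In these mice Lyz2 rested on 64 and 83 reads.

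**Figure D2:**
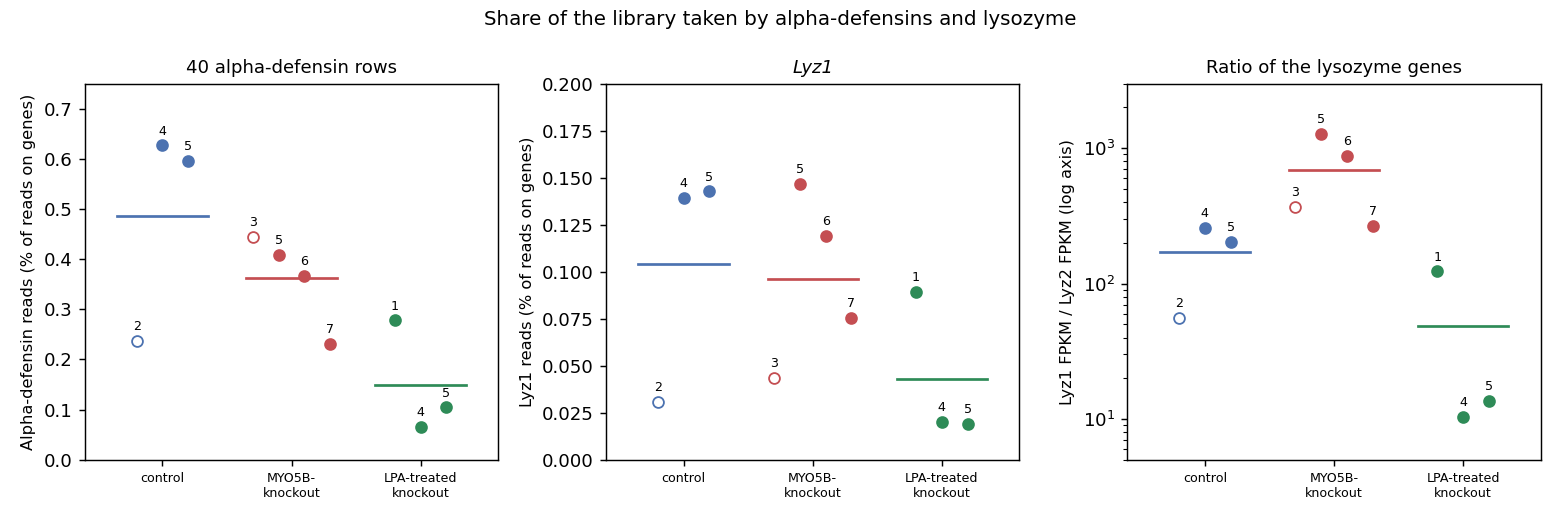
Share of the reads on genes taken by 40 alpha-defensin rows and by Lyz1 (percent, linear axes from 0) and ratio of Lyz1 to Lyz2 FPKM (log axis) in each mouse, with mouse numbers, group means as bars and open circles for the few-gene libraries. Alpha-defensins took 0.0651% and 0.104% of reads in LPA-treated mice 4 and 5 and at least 0.232% in every other mouse.

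Defa24 was the most abundant transcript of the group. Defa24 had 2187, 6748 and 6101 FPKM (controls), 4037, 3624, 3598 and 2137 (MYO5B-knockout) and 2358, 667 and 1352 (LPA-treated). Control mice 4 and 5 were highest and LPA-treated mice 4 and 5 lowest, while control mouse 2 lay among the knockout mice. The log2 fold change was -0.46 between MYO5B-knockout and control mice (SE 0.54, adjusted p = 0.698) and -1.08 without the few-gene libraries (adjusted p = 0.219). Between LPA-treated and untreated knockout mice it was -1.34 (SE 0.54, adjusted p = 1).

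Defa30, which differs from Defa24 at 4 coding bases, had 904, 3484 and 2973 FPKM (controls), 2572, 1980.2, 2241 and 1250.1 (MYO5B-knockout) and 1422, 339.7 and 257 (LPA-treated). Mice fell in nearly the same order as for Defa24, with LPA-treated mouse 1 again inside the range of the knockout mice. Between LPA-treated and untreated knockout mice the log2 fold change was -1.96 (SE 0.65, adjusted p = 1), the lowest of the 10 members. Between MYO5B-knockout and control mice it was -0.12 (SE 0.65, adjusted p = 0.947), with a sign that depended on the mouse left out, and -0.86 without the few-gene libraries (adjusted p = 0.427).

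Defa17, whose longer reads mainly Defa3 can share, had 858, 1320.3 and 1309 FPKM (controls), 1103, 637, 618 and 442 (MYO5B-knockout) and 554, 132 and 376 (LPA-treated). Every LPA-treated mouse lay below every control mouse. MYO5B-knockout mice 5, 6 and 7 lay below every control mouse, with mouse 7 also below LPA-treated mouse 1, while mouse 3, a few-gene library, lay inside the control range. Defa22 had 155, 117 and 239.8 FPKM (controls), 353, 341, 144 and 147 (MYO5B-knockout) and 180.1, 45.9 and 27.0 (LPA-treated). MYO5B-knockout mice 3 and 5 were highest for Defa22, unlike for Defa24 and Defa17, and LPA-treated mice 4 and 5 were again lowest. Log2 fold changes between LPA-treated and untreated knockout mice were -1.13 for Defa17 (SE 0.49) and -1.88 for Defa22 (SE 0.62), both with adjusted p = 1. Against controls, MYO5B-knockout mice had log2 fold changes of -0.78 for Defa17 and 0.46 for Defa22 (adjusted p = 0.446 and 0.74). Without the few-gene libraries these were -1.23 and 0.21 (adjusted p = 0.173 and 0.887).

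The table holds 36 further alpha-defensin rows, of which 22 passed the filter on low values and 11 had no read in any library. None of the 22 passed the test in either comparison. With LPA, 19 of the 22 were lower than in untreated knockout mice, where 39.3% of all genes were lower. Their median log2 fold change was -1.72, against 0.11 over all 15729 genes tested. Their range ran from -2.61 for Defa-ps6 to 0.67 for Defa-ps5, which were picked out by their values. AY761184, an alpha-defensin gene and the most abundant of these rows, had 676, 2003 and 1972 FPKM (controls), 1119, 1175, 1070.1 and 710.1 (MYO5B-knockout) and 822, 139.6 and 172 (LPA-treated). Its pattern was that of Defa24, with mice 4 and 5 of the LPA-treated group below all others. Defa5, Defa21 and Defa2 followed in abundance, with log2 fold changes of -1.81, -1.76 and -0.81 between LPA-treated and untreated knockout mice. Between MYO5B-knockout and control mice 12 of the 22 rows were higher and 10 lower, with a median of 0.094 against 0.29 over all genes. These rows share sequence with the members and with each other, so they are not independent of them. The 4 members made up 66.8% to 79.6% of the summed alpha-defensin FPKM in every library, and Defa24 alone 35.3% to 53.5%. The shares of the others varied more, with Defa30 at 10.2% to 25.6%, Defa17 at 6.47% to 14.9% and Defa22 at 0.784% to 3.47%. All alpha-defensin rows together took 0.237%, 0.627% and 0.597% of reads on genes in control mice 2, 4 and 5, then 0.445%, 0.409%, 0.366% and 0.232% in MYO5B-knockout mice 3, 5, 6 and 7, and 0.278%, 0.0651% and 0.104% in LPA-treated mice 1, 4 and 5.

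Mmp7 (chr9:7692090-7699585, plus strand), whose product matrilysin activates alpha-defensins, had levels that overlapped between all groups. Mmp7 had 17.4, 44.1 and 36.6 FPKM (controls), 39.1, 63.0, 41.7 and 40.5 (MYO5B-knockout) and 40.2, 31.0 and 55.0 (LPA-treated). Control mouse 2 was lowest and MYO5B-knockout mouse 5 highest. The log2 fold change between MYO5B-knockout and control mice was 0.57 (SE 0.36, adjusted p = 0.455), which became 0.17 without control mouse 2 and 0.24 without the few-gene libraries. It was -0.14 between LPA-treated and untreated knockout mice (SE 0.36, adjusted p = 1, 95% interval from -0.95 to 0.66). The ratio of Defa24 to Mmp7 FPKM was 126 to 167 in control mice, 52.7 to 103 in MYO5B-knockout mice, 58.7 in LPA-treated mouse 1 and 21.5 and 24.6 in LPA-treated mice 4 and 5.

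Ang4 (chr14:51763878-51773590, minus strand) encodes angiogenin 4, a bactericidal ribonuclease. Ang4 had 76.1, 517 and 243 FPKM (controls), 64.8, 153, 153 and 78.2 (MYO5B-knockout) and 112, 12.9 and 17.6 (LPA-treated). LPA-treated mice 4 and 5 had less than any other mouse, at 19.9% and 27.1% of the lowest of the other 8. The log2 fold change was -1.02 between MYO5B-knockout and control mice (SE 0.80, adjusted p = 0.546), and -1.53 without the few-gene libraries (adjusted p = 0.266). With the Xist libraries also left out, the same estimate of -1.53 passed (adjusted p = 0.047). That further step removed only LPA-treated mouse 1, which is in neither of these groups. Between LPA-treated and untreated knockout mice the log2 fold change was -1.82 (SE 0.80, adjusted p = 1).

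Itln1 (chr1:171518122-171535294, minus strand) encodes intelectin 1, a lectin that binds microbial glycans and is also made by goblet cells. Itln1 had 468, 761 and 649 FPKM (controls), 500.2, 273, 323 and 206 (MYO5B-knockout) and 253, 56.4 and 159 (LPA-treated). LPA-treated mice and controls did not overlap. MYO5B-knockout mouse 3 alone of the knockout mice reached the control range, and mouse 7 lay below LPA-treated mouse 1. Log2 fold changes were -0.99 between MYO5B-knockout and control mice (SE 0.49, adjusted p = 0.327), or -1.42 without the few-gene libraries (adjusted p = 0.135), and -1.23 between LPA-treated and untreated knockout mice (SE 0.49, adjusted p = 1).

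Pla2g2a (chr4:138831857-138835186, plus strand) encodes a secreted bactericidal phospholipase, which a frameshift inactivates in the C57BL/6 strain, and the annotation lists it as a polymorphic pseudogene. Pla2g2a had 13.8, 17.1 and 12.5 FPKM (controls), 8.34, 39.9, 20.1 and 20.5 (MYO5B-knockout) and 21.4, 8.95 and 37.3 (LPA-treated). High and low mice occurred in both knockout groups, and no pair of groups separated. The gene overlaps Pla2g5 on the opposite strand, which had 108% as many reads, and whether counting used strand is not given in the sources used here, so reads of these genes may have been mixed. Log2 fold changes were 0.43 between MYO5B-knockout and control mice (SE 0.56, adjusted p = 0.736), or 0.80 without the few-gene libraries (adjusted p = 0.382), and 0.0020 between LPA-treated and untreated knockout mice (SE 0.56, adjusted p = 1), the latter with a sign that turned in several alternatives.

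Counted over the members, MYO5B-knockout and control mice differed little beyond the spread between mice. No member (0 of 10) passed an adjusted p of 0.05, which 2.01% of all genes tested did, and 1 had an unadjusted p under 0.05. The share of all genes with such an unadjusted p was not counted in any comparison. DESeq2 and edgeR each called 1 member, Lyz2. Lyz2 was also the only member whose groups did not overlap, and 6.2% of all genes were lower in MYO5B-knockout mice without overlap. Of the members, 4 were higher and 6 lower, and 36.6% of all genes were lower. The members' median log2 fold change was -0.29 against 0.29 over all genes tested, and -0.97 without the few-gene libraries. With intervals of about 1.22 log2 units to either side of an estimate, differences of up to 2-fold were not detectable in these mice for most members.

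Between LPA-treated and untreated knockout mice 8 members were lower and 2 higher, where 39.3% of all genes were lower. None of the 10 passed, as limma called 0% of the 15729 genes in this comparison, while 7 members had an unadjusted p under 0.05. That count has no share of all genes beside it, and the alpha-defensins among the 7 share sequence. DESeq2 called 1 member, Lyz2, and edgeR none. Lyz2 alone had groups that did not overlap, where 3.56% of all genes were higher with LPA without overlap. The members' median log2 fold change was -1.29, against 0.11 over all genes. LPA-treated mice 4 and 5 held the lowest pair of values in 7 of the 10 members (Lyz1, Ang4, Itln1, Defa24, Defa17, Defa22 and Defa30) and in 0.852% of all genes tested. This pair of mice was picked after the members' values were seen, and the alpha-defensins among the 7 share sequence. The 2 shares therefore describe the values and do not test an excess. LPA-treated mouse 1 lay within the range of the untreated knockout mice for 9 of the 10 members. With the few-gene and Xist libraries left out, which leaves LPA-treated mice 4 and 5 against MYO5B-knockout mice 5, 6 and 7, 5 members passed: Lyz1 (-2.48, adjusted p = 0.0197), Ang4 (-3.02, 0.0242), Defa30 (-2.58, 0.0231), Defa22 (-2.45, 0.0389) and, in the other direction, Lyz2. That fit called 865 of all genes. With either set of libraries left out alone no member passed.

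Between LPA-treated and control mice 7 members were lower and 3 higher, where 30% of all genes were lower, and none passed, against 2.32% of all genes. An unadjusted p under 0.05 was found for 5 members, again without a share of all genes beside it. Itln1 and Defa17 were lower without overlap and Lyz2 was higher without overlap, where 6.38% of all genes were lower and 20.5% higher in that way. The lowest adjusted p was that of Itln1 (log2 fold change -2.22, SE 0.53, adjusted p = 0.0586), followed by Defa17 (-1.92, 0.0938), Ang4 (-2.85, 0.126) and Defa24 (-1.80, 0.148). DESeq2 called 5 members, Ang4, Itln1, Defa24, Defa17 and Defa30, and the same 5 passed limma's test without the few-gene libraries. Without the few-gene and Xist libraries 7 passed, all but Lyz2, Mmp7 and Pla2g2a, while edgeR called none. The calls over all genes also varied widely in this comparison, from 0 to 2410 genes over the 18 alternatives against 365 in the main fit. The members' counts thus depended on the fit, and the all-gene count of each single fit is not set beside them here. The median over the members was -1.61, against 0.41 over all genes. This comparison shares its control mice with the first and its LPA-treated mice with the second.

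**Figure D3:**
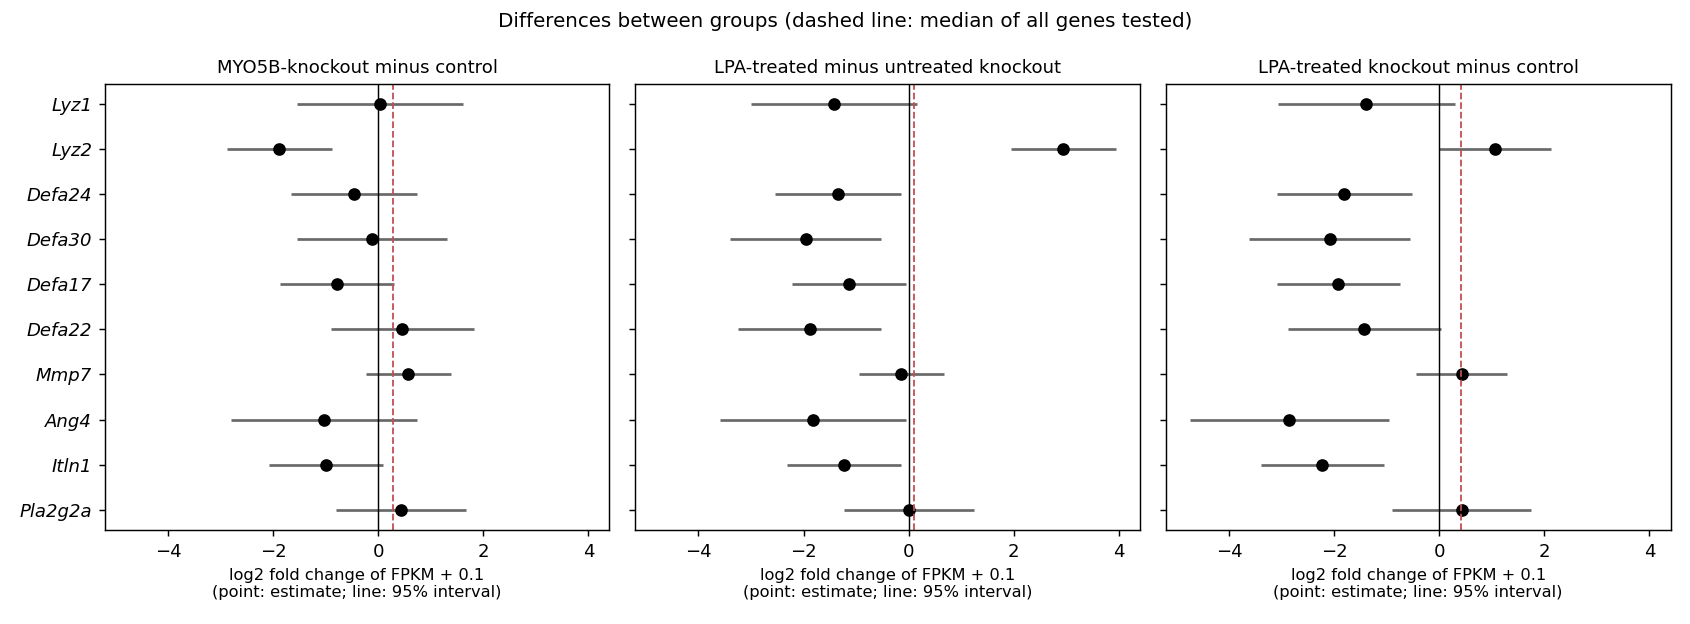
Log2 fold change of FPKM + 0.1 (points) with 95% intervals (lines) of the 10 Paneth cell genes in the 3 comparisons, with the median of all genes tested as a dashed line. In the second panel 8 genes lie left of 0 and Lyz2 lies at 2.94.

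Other secreted products of the Paneth cell were read beside the members. Of 22 further secreted products, 20 were in the table and 17 tested, and none passed in either comparison. With LPA, 14 of the 17 were higher than in untreated knockout mice, where 39.3% of all genes were lower. Their median log2 fold change was 0.56, against 0.11 over all genes. The 4 most abundant, Reg3b, Guca2b, Reg3g and Spink4, are also made by enterocytes or goblet cells. Their log2 fold changes in this comparison were 0.0081, 0.94, 0.035 and 0.60. The 3 that were lower, named after their values were seen, were Mptx2, Clps (-1.43) and Habp2 (-1.05). Mptx2 encodes a pentraxin of Paneth cells and had 83.4, 232 and 249 FPKM (controls), 128, 275, 232 and 158 (MYO5B-knockout) and 209.6, 33.7 and 14.7 (LPA-treated). It had the order of Lyz1, with LPA-treated mice 4 and 5 below all others (log2 fold change -2.01, SE 0.77, adjusted p = 1).

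Ligands of the stem cell niche and regulators of Paneth cell fate were measured beside the members. Of 7 ligand genes 6 were tested and none passed in any of the 3 comparisons. Wnt3, the main Wnt ligand of Paneth cells, had 0.677, 0.633 and 0.520 FPKM (controls), 0.445, 0.264, 0.430 and 0.216 (MYO5B-knockout) and 0.359, 0.132 and 0.561 (LPA-treated). Every knockout mouse lay below every control mouse (log2 fold change -0.73, SE 0.51, adjusted p = 0.496), and 6.2% of all genes were lower without overlap. The other tested Wnt ligands, named after their values were seen, went in opposite directions. Wnt6 was lower without overlap (-1.51, adjusted p = 0.243) and Wnt11 higher without overlap (1.60, adjusted p = 0.178). Their means over all libraries were 0.373 and 0.300 FPKM. The EGF receptor ligand Tgfa was higher without overlap in MYO5B-knockout mice than in controls (0.76, adjusted p = 0.25). The share of all genes higher without overlap in this comparison is not given here, so the separation of Tgfa and Wnt11 has no background beside it. The Notch ligands Dll1 and Dll4 overlapped between these groups (-0.22 and -0.40). Of 15 fate regulators, all tested, 1 passed between MYO5B-knockout and control mice: Etv5, a transcription factor downstream of FGF and ERK signalling, rose. It had 0, 0.425 and 0.273 FPKM (controls), 1.52, 2.82, 2.51 and 1.72 (MYO5B-knockout) and 3.33, 1.08 and 1.96 (LPA-treated) (log2 fold change 3.01, SE 0.64, adjusted p = 0.0448). This call was lost in 11 of 18 alternatives, among them edgeR, only the 2 groups compared and each control mouse left out (adjusted p up to 0.143). Xbp1, needed for the secretory machinery, had a log2 fold change of 0.56, and Ctnnb1 and Tcf7l2, which carry Wnt signalling into the nucleus, 0.99 and 0.26, none of which passed. None of the 15 passed between LPA-treated and untreated knockout mice, with a median of 0.14 against 0.11 over all genes. Of 12 genes for lysozyme sorting and granule release 11 were tested and none passed in these comparisons. Their medians were 0.083 and 0.14, against 0.29 and 0.11 over all genes. Rab2a, which helps to sort lysozyme to granules, was nearly level across all mice, at 99.9 to 123 FPKM.

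Markers of other epithelial cells were measured beside these. Of 12 goblet cell genes, 11 were higher in LPA-treated than in untreated knockout mice, where 39.3% of all genes were lower. Their median was 0.62, against 0.11 over all genes, and none passed in this comparison. Ccl6 fell in MYO5B-knockout against control mice (-2.77, SE 0.56, adjusted p = 0.0379). This call was lost in 7 of 18 alternatives, among them without control mouse 4 or 5 and with only the 2 groups compared (adjusted p up to 0.157). Zg16 and Tff3, both secreted by goblet cells, had log2 fold changes of 0.87 and 0.99 with LPA. Of 12 enterocyte genes, 9 had lower levels in MYO5B-knockout mice than in controls, where 36.6% of all genes were lower. Of these, 1, the lactase gene Lct, passed, though not without control mouse 5 or with only the 2 groups compared (adjusted p up to 0.064). Of 10 genes of crypt proliferation and stem cells, 9 were lower with LPA, with a median of -0.52 against 0.11 over all genes and none passing. Summed over the 10, controls had 78.2 to 223 FPKM, MYO5B-knockout mice 153 to 334 and LPA-treated mice 139 to 268. Between LPA-treated and control mice, 6 genes of these lists passed: Ephb3 (log2 fold change 2.02) and Agr2 (1.92) rose, and Ccl6 (-3.69), Lct (-9.23), Slc5a1 (-1.79) and Ascl2 (-2.09) fell. Of 18 alternatives, the call was lost in 14 for Ephb3, 12 for Ascl2, 10 for Agr2, 7 for Slc5a1, 6 for Ccl6 and 1 for Lct, and in each of these 6 genes with the replicate block. Olfm4, a gene of crypt base stem cells, had 10.9, 106 and 54.1 FPKM (controls), 2.45, 64.1, 74.3 and 37.4 (MYO5B-knockout) and 69.3, 9.30 and 2.24 (LPA-treated). It was low in LPA-treated mice 4 and 5, as Lyz1 and Defa24 were, and in both few-gene libraries. The part of these crypt base cells in the level of the Paneth cell genes was not tested.

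**Figure D4:**
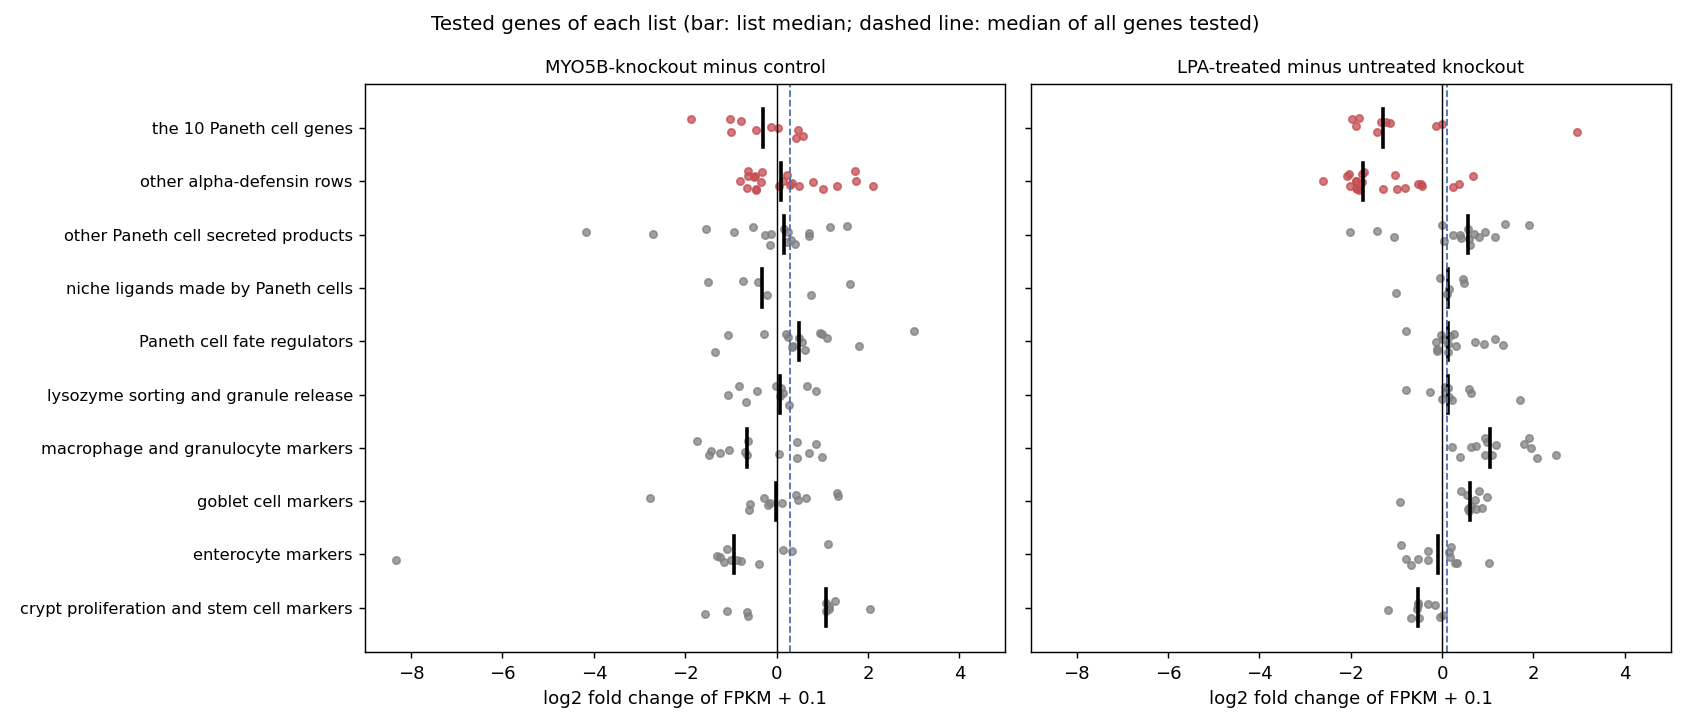
Log2 fold change of FPKM + 0.1 of each tested gene (points, spread vertically for visibility) in the 10 Paneth cell genes and 9 other lists, for MYO5B-knockout minus control and LPA-treated minus untreated knockout mice, with list medians as bars and the median of all genes as a dashed line. In the right panel the other alpha-defensin rows have a median of -1.72 and the macrophage and granulocyte markers one of 1.04.

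Over the 8 libraries other than the few-gene ones, the members' levels could be ranked by how closely they followed the members' mean standardized level, which contains each of them. Pearson correlations were 0.97 for Defa24, 0.96 for Defa17, 0.94 for Itln1 and Ang4, 0.92 for Lyz1, 0.89 for Defa30 and 0.76 for Defa22. Mmp7 and Pla2g2a followed it loosely, at 0.43 and 0.32, and Lyz2 ran the other way, at -0.61. Of 15636 other genes, Sema5a (0.989), Gm12343 (0.981), Zfp952 (0.968), Tmem42 (0.967) and Rnf216 (0.965) had the most similar patterns over these 8 libraries. Over all 10 libraries the correlations of these 5 genes were 0.899, 0.783, 0.254, 0.325 and 0.863. Sema5a, which encodes a semaphorin, had 0.503, 1.23 and 1.11 FPKM (controls), 0.186, 1.09, 0.824 and 0.451 (MYO5B-knockout) and 0.824, 0.0428 and 0.264 (LPA-treated). The points are whole libraries of 3 groups, so each correlation mixes differences between groups with differences between mice.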

How the data were processed

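Poly-A RNA-seq libraries of jejunal epithelial cells from 10 mice were analysed (3 control, 4 MYO5B-knockout and 3 LPA-treated MYO5B-knockout mice, each mouse a separate preparation). The authors deposited FPKM for 35275 genes, and the labels name STAR 2.5, TopHat, HTSeq 0.6.1 and DESeq2 with builds GRCm38 and mm10, without roles. No scaling between libraries is stated. Multiplied by gene length, FPKM were whole multiples of a single step (100% of values within 0.01), which gave reads per gene, and 63 of 63 read counts that the authors deposited equalled them. The authors' own comparison and pathway enrichment columns (fold changes and p-values) were not used.

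Genes averaging 0.1 FPKM or more (15729) were fitted as log2(FPKM + 0.1) in limma 3.58.1 (R 4.3.3), with all 3 groups in the same linear model and eBayes with a mean-variance trend, two-sided, with Benjamini-Hochberg adjustment over all genes and a threshold of 0.05. Adjusted p without a tool named is limma's. Fold changes are on that scale and understate those of low genes. Because the all-gene median was not 0, it is given beside the medians of lists. edgeR 4.0.16 (quasi-likelihood) and DESeq2 1.42.0 on the recovered reads, other pseudocounts, filters and scalings, and fits without single mice or libraries were alternatives. The scripts were tested on simulated data. The members and gene lists were chosen with earlier results of these data known. Other lists were described by counts and medians, and at most 4 genes of each were named by rule: those that passed in the first or second comparison, then the most abundant. Genes named beyond these were chosen after their values were seen: all that passed between LPA-treated and control mice, the lowest and highest other alpha-defensin rows, Mptx2, Clps, Habp2, Wnt6, Wnt11, Ptprc and S100a8. Lists other than the members exclude them. Coding sequences came from GENCODE M21 and promoters from RefSeq. Promoters of 3 members and protein sequences were not used here.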

Additional observations from a re-analysis of the deposited data

Results flagged for a closer look

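In the group of 4 MYO5B-knockout mice, each of the 10 genes was examined for a mouse that lay far from the other 3, by the gap to its nearest neighbour as a share of the group's range (critical value 0.829, which chance exceeds in about 1 of 20 groups). Lyz2 in MYO5B-knockout mouse 7, at 2.24 FPKM against 0.916 to 1.08 FPKM in the others, exceeded it with a gap of 0.875 of the range. Mmp7 in MYO5B-knockout mouse 5, at 63.0 FPKM against 39.1 to 41.7 FPKM in the others, exceeded it with a gap of 0.893 of the range.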

How the results depend on the processing

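Between MYO5B-knockout and control mice, 0 members and 3 genes of the 9 other lists passed. Under median-ratio scaling 1 member and 5 list genes passed, under quantile normalization 1 and 6, in DESeq2 1 and 18, in edgeR 1 member, without the few-gene libraries 11 list genes, and without the few-gene and Xist libraries 2 and 17. Without a filter on low values 1 list gene passed, and with only the 2 groups compared 0. With each mouse left out in turn, 0 to 6 list genes passed. Of all genes, 44 to 1797 passed over the 18 alternatives, against 316 in the main fit. The log2 fold change of Lyz1 reversed to -0.26 (median-ratio scaling), -0.36 (without the few-gene libraries, with or without the Xist libraries), -0.34 (edgeR) and -0.36 (DESeq2), and ranged from -0.70 to 0.41 with a mouse left out. That of Defa30 ranged from -0.73 to 0.25.

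Between LPA-treated and untreated knockout mice, 0 members and 0 list genes passed, against 1 member in DESeq2 and 5 members and 24 list genes without the few-gene and Xist libraries. Of all genes, 0 to 865 passed over the 18 alternatives. Pla2g2a reversed to -0.079 (median-ratio scaling), -0.12 (quantile normalization), -0.40 (without the few-gene libraries) and -0.47 (without the Xist libraries, alone or with the few-gene ones), and ranged from -0.47 to 0.55 with a mouse left out, as Mmp7 did from -0.36 to 0.057.

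Between LPA-treated and control mice, 0 members and 6 list genes passed. Members passing numbered 2 under median-ratio scaling, 5 without the few-gene libraries, 3 without the Xist libraries, 7 without both sets and 5 in DESeq2. Of all genes, 0 to 2410 passed over the 18 alternatives, against 365 in the main fit. List genes passing numbered 3 with a pseudocount of 0.01, 3 without a filter, 1 with only the 2 groups compared, 19 without the few-gene libraries, 37 without both sets, 19 in DESeq2, and 1 to 6 with a mouse left out. The members' median moved from -1.61 to -2.66 without both sets. Pla2g2a ranged from -0.047 to 0.98 with a mouse left out. The cause of these changes was not tested.

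LPA-treated and control mice share the mouse numbers 4 and 5. The deviations of same-numbered mice from their group means correlated at 0.104 and -0.355 over genes. These values come from groups of 3 mice and cannot decide whether same-numbered mice were paired. With the replicate block 0 members and 0 list genes passed. No paired analysis was possible for the other comparisons because their groups share only the mouse number 5. Over the 10 genes, 3 comparisons and all settings, 484 values kept direction and side of the threshold, 34 came to pass and 22 reversed. Groups of 3 or 4 mice limit the precision of every member, and depth that of Lyz2, with its 13 to 335 reads.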
